A study of Mus musculus with 8 samples.

Results

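The MYC-MAX-MXD network is the group of DNA-binding factors that share, or compete for, the partner proteins MAX and MLX. It was followed here as 10 genes: Myc, Mycn, Max, Mxd1, Mxi1, Mxd3, Mxd4, Mnt, Mga and Mlx. Its members were chosen by name, and a probe set was taken where the platform annotation gave a member as its only gene. This gave 26 probe sets, out of 45037 non-control probe sets and 18193 annotated genes. A probe set is the group of short probes that an Affymetrix array uses to read a transcript.

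RNA came from B cells of the germinal centre (GC), the follicle structure in which B cells proliferate, hypermutate their antibodies and are selected for antigen binding. The cells were sorted from the spleens of 8-week-old GFPMYC knock-in mice on a C57BL6 background, in which the MYC protein carries GFP, 12 days after immunization with sheep red blood cells. The MYC-positive group was the GFP-positive fraction (4 arrays) and the MYC-negative group the GFP-negative fraction (4 arrays) of B cells that bound peanut agglutinin strongly and carried much CD95. Both groups carry the fusion allele and both were immunized, so the data hold no unmodified or unimmunized cells; the number of fusion alleles per mouse is not given in the sources used here. Each sample description states its partner from the other fraction, which gives 4 pairs. The labels mention both sorting per mouse and pooled splenic cells, so a pair may be 1 mouse or a pool.

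As background, MYC and its relative MYCN activate genes as dimers with MAX, bound to the E-box sequence CACGTG. MXD1, MXI1, MXD3, MXD4 and MNT also pair with MAX on E-boxes, but recruit SIN3 and histone deacetylases and repress. MGA is a very large MAX partner that also carries a T-box and belongs to a Polycomb complex, PRC1.6. MLX is a MAX-like protein that pairs with MNT, MXD1 and MXD4 and with the glucose-responsive factors MLXIP (MondoA) and MLXIPL (ChREBP). In GC B cells, MYC is known to be on in a small fraction that has been selected with T cell help.

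The E-box itself was looked for in the promoters of the members, in the RefSeq promoter table of build GRCm38.p6, which holds 9 of the 10 genes in 11 windows of 300 bases. CACGTG, which reads the same on both strands, was in the windows of Mxd4, Mnt, Mlx and Max, so in 4 of 9 genes. It is in 8.09% of the 27025 genes of that table. The variants CACGCG and CATGTG, searched on both strands, were each in 1 member, Mga and Mxi1, and are in 10.5% and 15.9% of genes. The promoters with CACGTG are printed below because they hold the site that all these dimers compete for, and that of Mxd1 because it is the other member gene with a lower probe set and has no CACGTG. Each runs 5′ to 3′ in the direction of the gene, from 250 bases before the annotated start through the first 10 bases after it, and capitals mark CACGTG.
Mxd4 (chr5:34187701-34187960, minus strand): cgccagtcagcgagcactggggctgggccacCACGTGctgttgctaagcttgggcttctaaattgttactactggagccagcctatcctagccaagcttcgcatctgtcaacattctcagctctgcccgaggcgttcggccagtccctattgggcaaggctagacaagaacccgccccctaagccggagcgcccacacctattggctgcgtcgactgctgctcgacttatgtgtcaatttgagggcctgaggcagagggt
Mnt (chr11:74830674-74830933, plus strand): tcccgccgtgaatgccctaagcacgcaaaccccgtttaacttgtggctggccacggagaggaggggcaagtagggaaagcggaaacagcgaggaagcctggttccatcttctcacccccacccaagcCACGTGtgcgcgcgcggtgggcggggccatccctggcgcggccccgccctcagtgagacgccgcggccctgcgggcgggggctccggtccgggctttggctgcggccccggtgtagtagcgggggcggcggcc
Mlx (chr11:101087040-101087299, plus strand): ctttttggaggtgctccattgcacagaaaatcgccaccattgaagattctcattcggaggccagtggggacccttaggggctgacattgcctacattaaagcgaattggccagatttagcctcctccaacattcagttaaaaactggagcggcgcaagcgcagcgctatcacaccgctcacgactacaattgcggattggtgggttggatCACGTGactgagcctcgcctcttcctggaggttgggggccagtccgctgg
Max (chr12:76962239-76962498, minus strand): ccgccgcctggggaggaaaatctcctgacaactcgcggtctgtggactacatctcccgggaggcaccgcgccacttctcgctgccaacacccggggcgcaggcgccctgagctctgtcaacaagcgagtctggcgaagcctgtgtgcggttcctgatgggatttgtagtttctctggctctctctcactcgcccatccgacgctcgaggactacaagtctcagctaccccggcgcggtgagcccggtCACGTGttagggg
Mxd1 (chr6:86669150-86669409, minus strand): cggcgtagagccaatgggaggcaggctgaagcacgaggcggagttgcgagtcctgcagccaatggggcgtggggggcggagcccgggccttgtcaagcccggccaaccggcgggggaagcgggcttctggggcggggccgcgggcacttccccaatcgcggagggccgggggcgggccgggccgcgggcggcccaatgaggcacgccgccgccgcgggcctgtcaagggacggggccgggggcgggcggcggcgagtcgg
The E-box begins 219 bases before the start in Mxd4, 123 in Mnt, 40 in Mlx and 3 in Max. A match is a description of these letters and not evidence of binding. Of the 4 genes that hold it, Mxd4 was lower in the MYC-positive fraction, and Mnt, Mlx and Max did not pass the test.

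The values are array signals on a linear scale. A difference is the log2 signal of MYC-positive minus that of MYC-negative samples, from a limma fit with the pair as a block. A probe set was called at an adjusted p under 0.05 over the 27022 probe sets kept. Of the 26 member probe sets, 20 passed the filter on low signals, a mean log2 signal that corresponds to a signal of 18.7, and they cover 9 of the 10 genes. The 3 probe sets of Mycn and 1 each of Mxd1, Mnt and Mga did not pass it. Among the 20, 1 was higher in the MYC-positive samples, that of Myc, and 3 were lower, 2 of Mxd4 and 1 of Mxd1. Over all probe sets kept, 7.80% were called higher and 13.6% lower, so the share of the network that was lower is close to that of the array as a whole. The median difference was -0.54 over the 20, -0.32 over the brightest probe sets of the 9 genes and -0.23 over all probe sets kept. As deposited, most features were thus slightly lower in the MYC-positive arrays, and the cause of this was not tested. Quantile normalization raised the median of all probe sets by 0.25 and median centring by 0.36. Of the called probe sets 36.5% were higher as deposited and 70.7% after median centring, and after quantile normalization 2972 were higher and 2975 lower. In bulk RNA, fewer cells of a type and less RNA per cell cannot be told apart.

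The labelled cell type was checked with marker lists. B cell genes were present (6 measured, 0 higher and 2 lower, Cd22 and Blk), as were GC genes (6 measured, 0 higher and 2 lower, Fas and Mybl1). Of 6 plasma cell genes 5 were measured and 1 was higher, Sdc1. Of 7 T cell genes on the array 2 were measured and 0 passed the test, of 5 granulocyte genes 1 was measured and 0 passed, and none of 4 NK cell and 3 erythroid genes passed the signal filter. Macrophage and monocyte genes moved with the sort. Of 16, 12 were measured, 9 were higher and 1, Apoe, was lower, with a median difference of 3.63, and their summed signal ran from 1665 to 11039.7 in MYC-positive and from 677 to 1594 in MYC-negative arrays. The mean signals of Cd14, Marco, Mertk and Vsig4 over all 8 arrays lay below the filter level. The part of these cells in the results below was not tested.

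Myc, the gene the cells were sorted on, had signals of 361, 932, 644 and 891 in the MYC-positive samples of pairs 1 to 4, against 33.3, 156, 105 and 137 in their MYC-negative partners. The groups did not overlap, and pair 1 held the lowest array of each group. The log2 signal averaged 9.37 ± 0.63 in MYC-positive and 6.54 ± 1.02 in MYC-negative samples (SD, n = 4 each). The difference was 2.83 (SE 0.28), a fold of 7.13, with a limma adjusted p of 0.0016, and it lay between 2.58 and 3.44 in the 4 pairs. Since the sort was made on the protein of this gene, its difference serves as a check of the labels alone.

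Mycn, which encodes the N-MYC protein known from neural and early B cell development, was dim in both fractions. Its brightest probe set (1425922_a_at) had signals of 5.63, 7.69, 32.4 and 35.4 in MYC-positive samples and 29.6, 10.2, 26.7 and 22.8 in MYC-negative samples. The other probe sets of Mycn had signals between 1.47 and 13.8 in MYC-positive and between 1.83 and 18.8 in MYC-negative samples. No direction was read from these levels.

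Max, which encodes the shared dimer partner, did not pass the test. Its signals were 4700.0, 3843, 4247 and 5207 in MYC-positive and 3978, 4375, 3511 and 4515 in MYC-negative samples. The groups overlapped, and MYC-positive samples were higher in 3 of 4 pairs. The difference was 0.13 (SE 0.14, limma adjusted p = 0.52), within pair differences of -0.19 to 0.27. With median centring it was 0.49 and with quantile normalization 0.023, and the adjusted p lay between 0.072 and 0.91 over 13 alternatives.

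**Figure D1:**
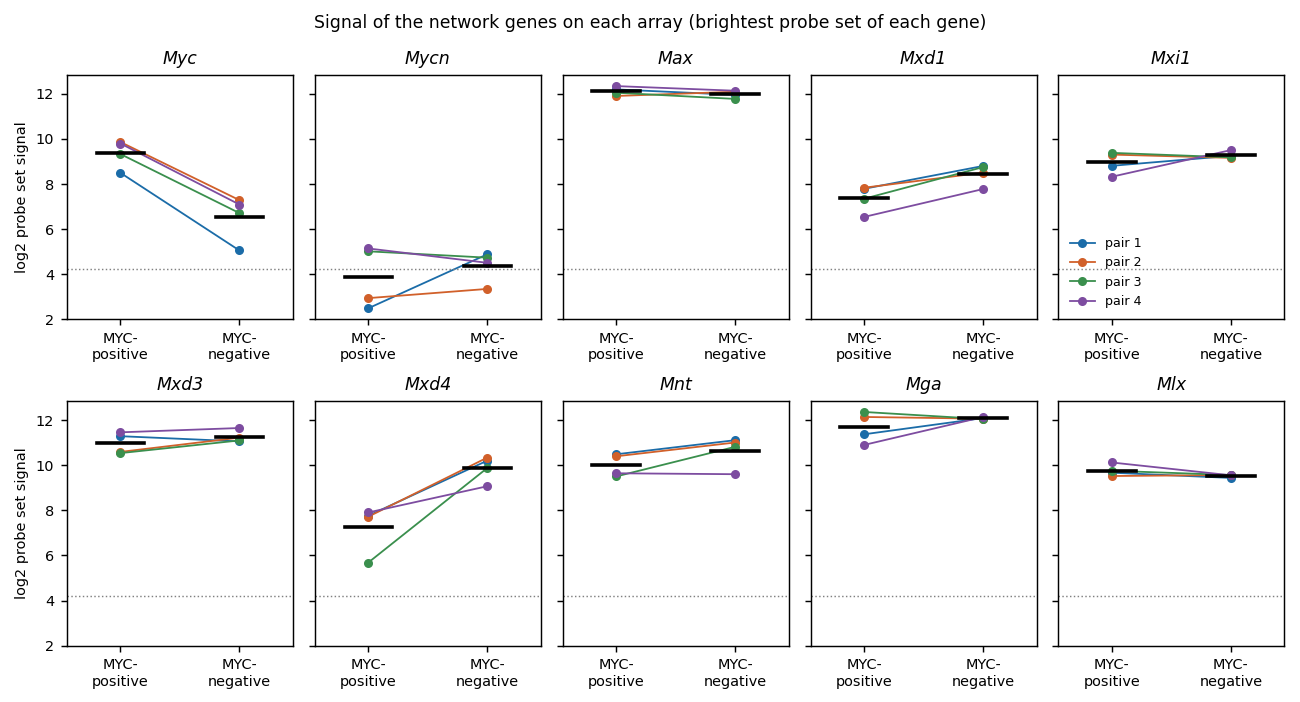
Log2 probe set signal (vertical axis) of the 10 network genes on each of the 8 arrays, with MYC-positive on the left and MYC-negative on the right of each panel; lines join the pairs, black bars are group means and the dotted line is the filter level. Myc at 9.37 against 6.54 and Mxd4 at 7.27 against 9.88 are the means that lie farthest apart, Max stays near 12 in both groups, and Mycn lies around the filter level.

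Among the MAX partners that repress, Mxd4, a member known from differentiating and resting cells, differed most. Its brightest probe set (1434378_a_at) had signals of 218, 211, 51.6 and 240.3 in the MYC-positive samples of pairs 1 to 4, against 1182, 1298, 942 and 538 in the MYC-negative samples. Every MYC-positive value lay below every MYC-negative value. The MYC-positive array of pair 3 was the lowest, and the smallest gap was in pair 4. The log2 signal averaged 7.27 ± 1.06 in MYC-positive and 9.88 ± 0.57 in MYC-negative samples (SD, n = 4 each). The difference was -2.60 (SE 0.44, limma adjusted p = 0.0076), 6.08-fold lower in MYC-positive samples, and ran from -4.19 to -1.16 in the pairs. The call held under 12 of 13 alternatives, with adjusted p from 5.7e-05 to 0.060. It ended without pair 1 (-2.66, adjusted p = 0.060). The summed macrophage and monocyte signal was 11039.7, 4783, 1665 and 3726 in the MYC-positive arrays of pairs 1 to 4. Its part in the Mxd4 difference was not tested.

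The other Mxd4 probe sets were dimmer. Probe set 1434379_at had signals of 60.1, 47.0, 11.9 and 115 in MYC-positive and 309.7, 266, 221 and 93.6 in MYC-negative samples. It was lower in pairs 1 to 3 and 0.30 higher in pair 4, so the groups overlapped. Its MYC-positive array of pair 3, at 11.9, lay below the filter level. The difference was -2.20 (SE 0.65, limma adjusted p = 0.046, from 0.00044 to 0.17 over 11 alternatives), and -1.52 without pair 3. That call ended without pair 1, 2 or 3 (adjusted p = 0.17, 0.13 and 0.13), after either rescaling (0.074 with quantile normalization and 0.068 with median centring), without the filter (0.061) and without an intensity trend (0.10). Probe set 1422574_at was at -1.62 (SE 0.68, adjusted p = 0.12) and did not overlap between groups. Its signals were 71.7, 58.8, 4.72 and 50.7 in MYC-positive and 76.5, 124, 96.2 and 99.1 in MYC-negative samples, so the size of the difference rests on the MYC-positive array of pair 3, which lay below the filter level. Probe set 1422575_at was at -1.35 (SE 0.60, adjusted p = 0.14), with signals of at most 20.7 in MYC-positive and from 17.3 to 39.9 in MYC-negative samples. It passed the filter only through the MYC-negative arrays, with a mean log2 signal of 3.61 in MYC-positive and 4.96 in MYC-negative samples against a filter level of 4.22, so nothing is read from its difference.

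Mxd1, the founding MXD gene, known to be induced as cells leave the cell cycle, was lower by 1 of its 2 kept probe sets. Probe set 1434830_at had signals of 222, 229, 163 and 93.3 in MYC-positive and 447, 364, 431 and 219.7 in MYC-negative samples. It was lower in MYC-positive samples in 4 of 4 pairs, but the groups overlapped, because the MYC-negative array of pair 4 lay among the MYC-positive arrays. The difference was -1.08 (SE 0.27, limma adjusted p = 0.027), 2.11-fold lower, and ran from -1.40 to -0.67 in the pairs. It kept its sign under all 13 alternatives and its call under 6 of them, with adjusted p from 0.011 to 0.11. The call ended without pair 1 (0.11), pair 2 (0.075) or pair 3 (0.095), after quantile normalization (-0.74, 0.068) and median centring (-0.72, 0.075), without the pair block (0.075) and with the mean over probe sets (-0.78, 0.059). Probe set 1455104_at had signals of 359.9, 151, 104 and 262 in MYC-positive and 288, 290.2, 278 and 238 in MYC-negative samples. It was lower in pairs 2 and 3 and higher in pairs 1 and 4, at -0.47 overall (SE 0.36, adjusted p = 0.37). The 2 probe sets of Mxd1 thus disagree in pairs 1 and 4. The third, 1422002_at, had signals of at most 3.13 on every array.

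Mnt, which encodes a broadly expressed MAX partner that represses in dividing and resting cells alike, was at -0.63 (SE 0.23, limma adjusted p = 0.088). Its signals (1418192_at) were 1437, 1351, 727 and 801 in MYC-positive and 2216, 2063, 1807 and 779 in MYC-negative samples. MYC-positive samples were lower in pairs 1 to 3, by differences of -0.62, -0.61 and -1.31, and at 0.04 in pair 4, whose MYC-negative array was the lowest of its group. Without pair 4 the difference was -0.85 with an adjusted p of 0.0048, without pair 3 it was -0.40 with 0.27, and after median centring it was -0.27 with 0.42. Over 13 alternatives the adjusted p lay between 0.0048 and 0.42, and pair 4 was the only one whose removal moved it past the threshold. The other probe set of Mnt had signals of at most 11.9.

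Mxd3, the MXD gene known to be expressed in proliferating cells in S phase, did not pass the test with any of its 3 probe sets. The brightest (1438847_at) had signals of 2505, 1546, 1489.8 and 2822 in MYC-positive and 2136, 2396, 2199 and 3221 in MYC-negative samples. The groups overlapped, and the difference was -0.29 (SE 0.18, limma adjusted p = 0.29). After median centring the difference turned positive, at 0.071 (adjusted p = 0.83). The dimmer probe sets were at -0.60 (1448878_at, SE 0.45, adjusted p = 0.37) and -0.85 (1422970_at, SE 0.45, adjusted p = 0.20). Both had their lowest signal in the MYC-positive array of pair 3, at 98.1 and 37.7, and both were positive in pair 4 (0.87 and 0.29). Without pair 4 both passed the threshold, at -1.09 with an adjusted p of 0.031 and at -1.23 with an adjusted p of 0.037.

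Mxi1, which encodes a MAX interactor of the MXD family, and Mga shared a pattern by pair in their brightest probe sets. The brighter Mxi1 probe set (1450376_at) had signals of 449, 634, 669 and 321 in MYC-positive and 610.0, 573, 583 and 728 in MYC-negative samples. The brightest Mga probe set (1434746_at) had 2656, 4524, 5276 and 1915 in MYC-positive and 4373, 4292, 4242 and 4518 in MYC-negative samples. For both of these probe sets the MYC-negative samples lay close together. Among MYC-positive samples those of pairs 1 and 4 were low and those of pairs 2 and 3 high. Mxi1 differed by -0.44, 0.14, 0.20 and -1.18 in pairs 1 to 4 and Mga by -0.72, 0.08, 0.31 and -1.24. Neither passed the test: Mxi1 was at -0.32 (SE 0.28, adjusted p = 0.44) and Mga at -0.39 (SE 0.25, adjusted p = 0.29). The summed macrophage and monocyte signal was 11039.7 and 3726 in the MYC-positive arrays of pairs 1 and 4 and 4783 and 1665 in those of pairs 2 and 3, and its part in this pattern was not tested. The order is not particular to Mxi1 and Mga: the MYC-positive arrays of pairs 1 and 4 were also the lowest for Ep300, a histone acetyltransferase gene, with 1416, 2186, 2580 and 641 in the MYC-positive samples of pairs 1 to 4 and from 2522 to 3885 in MYC-negative samples. The resemblance was seen, and Ep300 chosen, after the values were examined.

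The other probe sets of Mxi1 and Mga were dimmer. Mxi1 probe set 1425732_a_at was at -1.76 (SE 0.66, adjusted p = 0.093) and its groups did not overlap, but its signals of 28.4, 2.45, 25.5 and 8.35 in MYC-positive and 31.1 to 45.8 in MYC-negative samples reach below the filter level in 2 arrays. Over the whole network the groups did not overlap for 4 of 20 kept probe sets, where 23.0% of all kept probe sets do not overlap. This Mxi1 probe set is 1 of the 4 and was kept only through the MYC-negative arrays (mean log2 signal 3.46 in MYC-positive and 5.22 in MYC-negative samples), so nothing is read from that count. Mga probe set 1442356_at was negative in 4 of 4 pairs, at -0.64 (SE 0.36, adjusted p = 0.23). Its MYC-negative signals were 236, 203, 247 and 77.2 in pairs 1 to 4, so they did not lie close together. Mga probe set 1431232_a_at had signals of 3.28 and 5.84 in the MYC-positive and the MYC-negative array of pair 4, where the other arrays had from 87.8 to 138 in MYC-positive and from 75.3 to 175 in MYC-negative samples. The low signal therefore went with the pair and not with the sort, and the difference was -0.15 (SE 0.47, adjusted p = 0.85). Mga probe set 1422646_at was at -0.27 (SE 0.41, adjusted p = 0.67), and the remaining one, 1433012_at, had signals of at most 18.8.

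Mlx, which encodes the MAX-like hub, was the other gene besides Myc and Max whose kept probe sets all had positive differences. Its brighter probe set (1418437_a_at) had signals of 815, 736, 865 and 1116 in MYC-positive and 695, 759.9, 759.7 and 753 in MYC-negative samples. The difference was 0.24 (SE 0.20, limma adjusted p = 0.42), and the groups overlapped through the MYC-positive array of pair 2. Probe set 1425930_a_at was at 0.82 (SE 0.43, adjusted p = 0.20), positive in pairs 1, 2 and 4 and at -0.50 in pair 3. The brighter probe set was at 0.59 after median centring and at 0.12 without pair 4, and the mean over both was at 0.53. Its adjusted p lay between 0.067 and 0.66 over the alternatives. Probe set 1425930_a_at ran from 0.48 without pair 4 to 1.26 without pair 3, with adjusted p between 0.051 and 0.42.

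**Figure D2:**
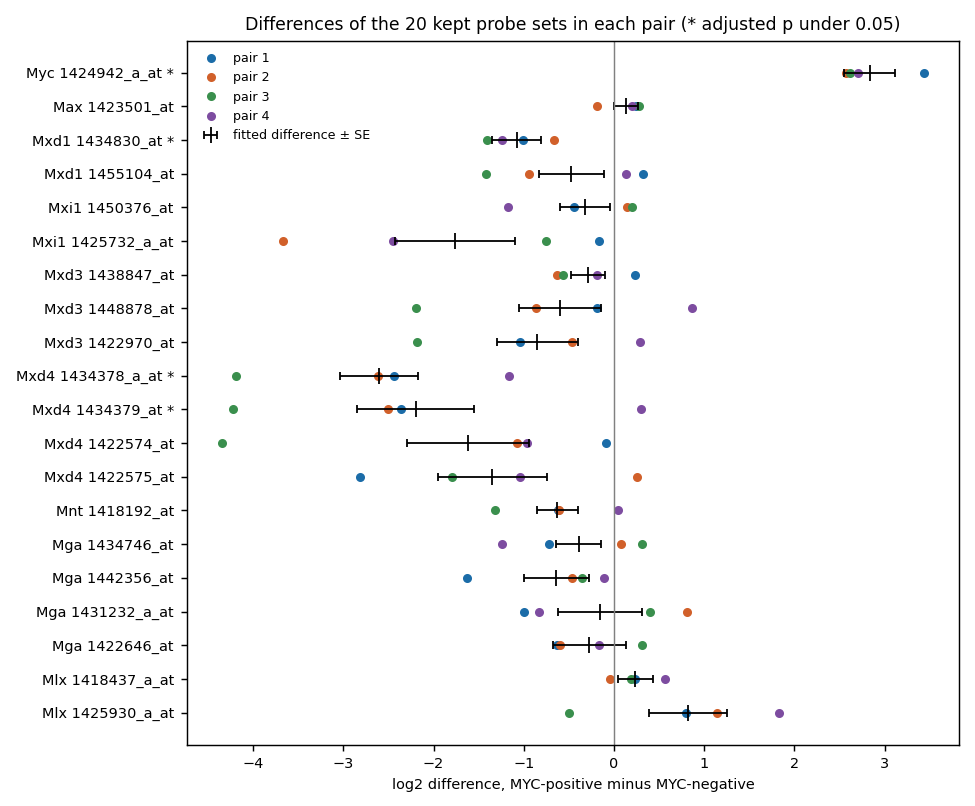
Log2 difference, MYC-positive minus MYC-negative (horizontal axis), of the 20 kept probe sets of the network, with 1 coloured point per pair and the fitted difference ± SE in black; asterisks mark an adjusted p under 0.05. The Mxd4 points of pair 3 lie at -4.19, -4.22 and -4.35 for 3 of the 4 Mxd4 probe sets and at -1.79 for 1422575_at. For every Mxd4 probe set but 1434378_a_at, which is at -4.19, the MYC-positive array of pair 3 lay below the filter level. The 4 pairs share a sign for Myc, Mxd1 1434830_at and Mxd4 1434378_a_at among the called probe sets.

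Because the sign of a small difference depends on the scaling, each member was also set against Max on the same array, which cancels any scaling by a constant factor. Relative to Max, Myc was 2.34 to 3.20 higher in the 4 pairs on the log2 scale. Mxd4 (1434378_a_at) was at -4.47 to -1.37 relative to Max, Mxd1 (1434830_at) at -1.68 to -0.48, and Mnt at -1.59 to -0.16, so these 3 probe sets were negative in 4 of 4 pairs. Mxd4 1422574_at was too, at -4.62 to -0.33. Other probe sets of the same genes were not, as Mxd1 1455104_at reached 0.08, Mxd4 1434379_at 0.09 and Mxd4 1422575_at 0.44. Mxd3 (1438847_at) was at -0.84 to -0.01, also negative in 4 of 4 pairs, while its other probe sets reached 0.66 and 0.08. Mlx (1418437_a_at) was at -0.09 to 0.36, and Mxi1 (1450376_at) and Mga (1434746_at) each had both signs among the pairs. Mga 1442356_at was at -1.86 to -0.28, while Mga 1431232_a_at reached 0.99 and Mga 1422646_at 0.04. Mxi1 1425732_a_at was at -3.48 to -0.41, but it was kept only through the MYC-negative arrays, so nothing is read from it. These ratios show unequal change between genes and not that Max was unchanged. Of 19 kept probe sets besides that of Myc, 16 had a negative difference as deposited, 14 after quantile normalization and 12 after median centring. The shares of all kept probe sets were 61.9%, 49.0% and 43.4% in the same order. These counts include Mxd4 1422575_at and Mxi1 1425732_a_at, which were kept only through the MYC-negative arrays. Genes with several probe sets count more than once, so nothing is read from the counts.

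**Figure D3:**
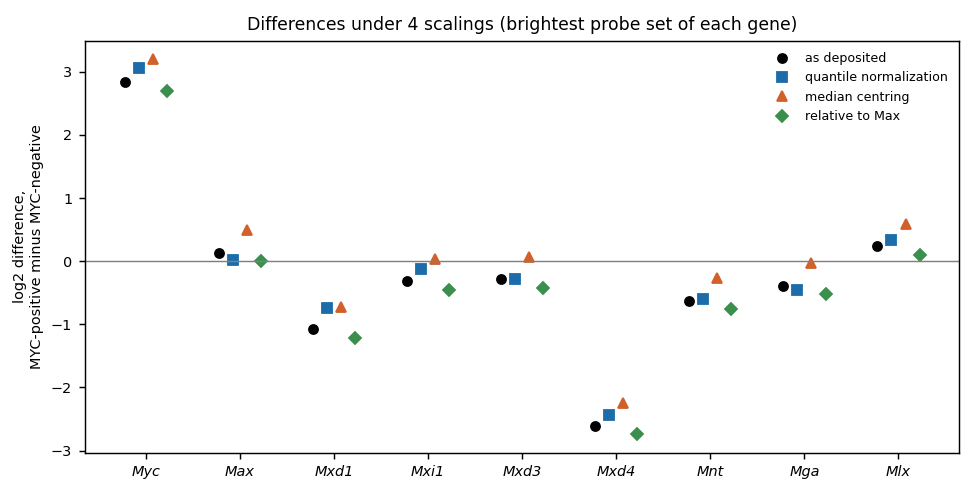
Log2 difference, MYC-positive minus MYC-negative (vertical axis), of the brightest probe set of each gene as deposited, after quantile normalization, after median centring and as the mean over pairs relative to Max. Mxd4 lies between -2.74 and -2.24 and Mxd1 between -1.21 and -0.72 under all 4, while Mxi1 and Mxd3 change sign with median centring.

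The remaining network genes were Mlxip, Mlxipl, Mycl and Mycs. Mlxip, which encodes MondoA, the partner of MLX that senses glucose-derived signals, was lower in MYC-positive samples. Its signals were 1266, 1455, 1239.8 and 778 in MYC-positive and 2539, 2245, 2127 and 1679 in MYC-negative samples, and the groups did not overlap. The difference was -0.88 (SE 0.17, limma adjusted p = 0.011), and -0.52 after median centring with an adjusted p of 0.062. Txnip, a target gene of MondoA and MLX known to restrain glucose uptake, was lower too. Its signals were 2025, 1425, 1254 and 2839.9 in MYC-positive and 4674, 4805, 5106 and 3513 in MYC-negative samples, again without overlap, and the difference was -1.32 (SE 0.26, adjusted p = 0.013). Arrdc4, another target of MondoA, was dim at -0.39 (SE 0.71, adjusted p = 0.73). The mean over all 8 arrays of Mycl, Mlxipl and Mycs lay below the filter level, and their group means were at most 24.0 (Mycl in MYC-negative samples). Pvt1, the non-coding RNA gene next to Myc, was at 0.27 (SE 0.19, adjusted p = 0.33).

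Genes of the proteins that work with the network went both ways, counted with 1 probe set per gene, where 10.7% of 11754 genes were called higher and 10.5% lower. Of 19 measured coactivators and cofactors of MYC, 4 were higher and 2 lower, with a median difference of -0.02. The higher ones were Kat2a, which encodes the acetyltransferase GCN5 (1.44, SE 0.35, limma adjusted p = 0.025), the AAA+ ATPase genes Ruvbl1 (1.34, SE 0.20, adjusted p = 0.0053) and Ruvbl2 (1.00), and Wdr5 (0.60), which encodes a MYC-binding scaffold of histone methyltransferases. The lower ones were the acetyltransferase gene Ep300 (-1.04, SE 0.25, adjusted p = 0.025) and Bptf (-0.92), a chromatin remodeller gene. Of 14 measured genes of the SIN3-HDAC corepressor that MXD proteins recruit, 1 was higher, the deacetylase gene Hdac2 (0.74), and 2 were lower, Arid4a (-0.76) and Arid4b (-0.95), with a median of 0.06. Of 12 measured genes of the MGA complex, 1 was higher, Pcgf6 (0.74), which encodes its defining Polycomb subunit, and 1 lower, the E2F partner gene Tfdp2 (-1.28), with a median of 0.13.

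Of 20 measured genes that act on the stability of the MYC protein, 1 was higher and 1 lower, with a median of -0.01. Trim32, which encodes a ubiquitin ligase, was at 0.96 (SE 0.19, limma adjusted p = 0.013), and Gsk3b, which encodes a kinase that marks MYC for destruction, at -0.74 (SE 0.16, adjusted p = 0.018). No test of a list was made. The 15 called genes of the lists, Mlxip and Txnip included, kept their direction under each of the alternative settings applied to them. All 15 lost the call without pair 1, with adjusted p from 0.055 to 0.17. Without pair 2, 5 of 15 kept it (Mlxip, Ruvbl1, Bptf, Ep300 and Tfdp2). Without pair 3, 12 did (all but Wdr5, Hdac2 and Pcgf6), and after median centring 10 did (all but Mlxip, Ep300, Arid4a, Arid4b and Gsk3b). Without an intensity trend 3 of 15 passed (Ruvbl1, Tfdp2 and Trim32), without the pair block 12 did (all but Kat2a, Bptf and Ep300), and without the filter Pcgf6 was lost (adjusted p = 0.063).

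**Figure D4:**
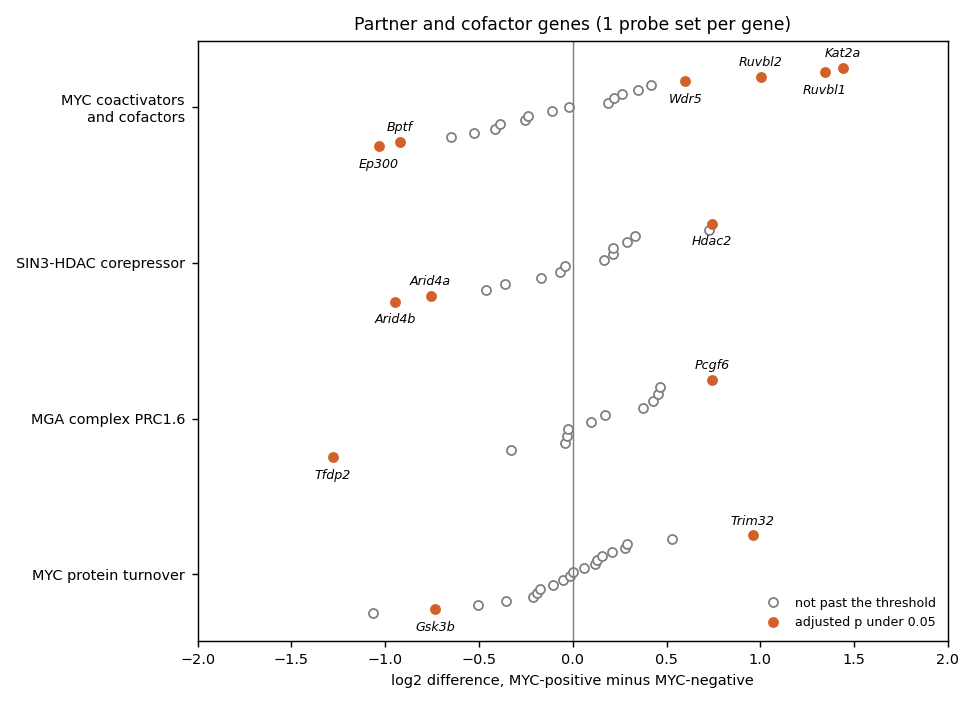
Log2 difference, MYC-positive minus MYC-negative (horizontal axis), of the measured genes of 4 lists of proteins that work with the network, 1 point per gene, ordered within a list; filled points have an adjusted p under 0.05 and carry the gene symbol. Points lie on both sides of 0 in each list, with Kat2a and Ruvbl1 farthest right and Tfdp2 farthest left.

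The genes whose signal followed that of a member most closely were taken by Pearson correlation of log2 signal over the 8 arrays, as a description. The arrays of a group share the sort, so a high value mostly restates the difference between groups. For Myc these were Mpp6 (r = 0.99), Adm, Spryd4, Aven and Kyat3, with differences between 0.92 for Mpp6 and 3.26 for Adm. For Mxd4, the member with the most negative difference, they were AB124611 (r = 0.99), Btg2, Arhgap4, Dhx58 and Arhgap45, with differences between -1.82 for Arhgap45 and -1.25 for AB124611. Btg2 encodes an antiproliferative protein known to be induced by p53.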

How the data were processed

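Per the labels' protocols, sorted GC B cell RNA (5 to 20 ng) was amplified and labelled with NuGEN kits and hybridised to Affymetrix mouse 430 2.0 arrays, 1 array per sample. The authors deposited linear signal intensity for each probe set. MAS5 is the tool that the submitters' processing notes give, without version or scaling target. The mean signal after trimming 2% from each end lay between 495 and 497 on every array, so the arrays had been scaled singly. No detection calls were used, and the number of arrays limits the precision.

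Of 45056 probe sets, 19 were controls, 34945 others had 1 gene, 932 several and 9160 none in the platform annotation provided; looking gene identifiers up in RefSeq changed 0 symbols. Signals were floored at 1 and log2 transformed, and the 27022 probe sets with a mean above the 40th percentile were kept. limma 3.58.1 in R 4.3.3 fitted group and pair (lmFit, then eBayes with an intensity trend, 3 residual degrees of freedom), with 2-sided p-values adjusted by Benjamini-Hochberg over all kept probe sets. With 4 pairs an exact permutation of signs has a smallest p of 0.125, so none was made. Where pairs are not separate animals, the spread behind the p-values may be technical. Pairs were read from the descriptions of the samples; deviations of partners from their group means correlated at 0.22, 0.10, 0.079 and 0.15 in pairs 1 to 4. The procedure was tested on simulated data, where it missed most of the smaller changes put in. A gene that did not pass the test may therefore still differ. Alternatives were 2 other normalizations, 2 filters, a pseudocount of 16, no block, no trend, 2 ways of joining probe sets and leaving out each pair.

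The members and lists were chosen with earlier results of these data known. The genes named are all members with every probe set, the 3 largest called differences of each list, all of the small lists, and the 5 genes most like Myc and the member with the most negative difference. Ruvbl2, Bptf, Wdr5 and the marker genes were named after their values were seen. Some list entries are not reported here. Promoter sequences are from RefSeq, build GRCm38.p6; the files themselves name no build, so gene coordinates are left out.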

Additional observations from a re-analysis of the deposited data

Results flagged for a closer look

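In each group of 4 arrays, the lowest or highest log2 signal of a member probe set was compared with the rest by Dixon's criterion, in 40 groups. An array stood apart in 6 of them, where chance marks about 1 group in 20. The groups share arrays and genes and are not independent, so no excess over chance is read from the 6. In the MYC-positive array of pair 3, Mxd4 was low at 5.69 (1434378_a_at), where the next lowest was 7.72, and at 2.24 (1422574_at), where the next was 5.67. Mga probe set 1422646_at was high in the same array at 6.13, with the next at 5.25. In pair 4, Mga was low at 1.71 in the MYC-positive array (1431232_a_at), with the next at 6.46, and at 6.27 in the MYC-negative array (1442356_at), with the next at 7.67. Mlx was low in the MYC-negative array of pair 1, at 9.44 (1418437_a_at), within a group whose other values began at 9.56.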

How the results depend on the processing

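Myc was higher and Mxd4 (1434378_a_at) lower under all 13 alternatives, past the threshold in 13 and 12 of them. The number of probe sets called higher, 2109, became 4343 after median centring, 894 without an intensity trend, 1319 with 1 probe set per gene and 1167 with the mean over probe sets. The number called lower, 3675, became 1804, 1892, 1352 and 1592 in the same order, and 2309 without the pair block. The counts with 1 value per gene are smaller by construction, as only 11754 genes are tested. Without each pair in turn the counts ran from 342 to 2854 higher and from 408 to 5303 lower, with the lowest without pair 1 and the highest without pair 4. The MYC-positive array of pair 4 had the lowest median signal, 28.2, where the other arrays had 36.8 to 55.8. Its highest correlation of log2 signal with another array was 0.90, where the other arrays reached 0.95 to 0.97. The part of this array in the counts and in the pair 4 values of the members was not tested. Without the pair as a replicate block, 1596 probe sets were higher, and among members 1 was higher and 2 were lower; the call of Mxd1 was lost and no other member call changed. Member probe sets called lower, 3 as reported, numbered 1 after quantile normalization, after median centring and with the mean over probe sets, and from 0 without pair 1 to 6 without pair 4. Signs turned for members that did not pass the test: Mga 1431232_a_at was at 0.66 after quantile normalization, 0.21 after median centring, and from -0.47 to 0.13 without each pair in turn (0.13 without pair 1 and 0.072 without pair 4), Mga 1422646_at at 0.27 and 0.088 after these rescalings, and Mxi1 1450376_at at 0.040 and Mxd3 1438847_at at 0.071 after median centring. The cause of these changes was not tested. Low signals with no detection call limit the folds of the dim Mxd4, Mxi1 and Mycn probe sets.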
